A study of Mus musculus with 2 samples.

Results

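The Mcm7 intron cluster (Mir106b, Mir93 and Mir25) and the miR-106a-363 cluster of the X chromosome (Mir106a, Mir18b, Mir20b, Mir19b-2, Mir92-2 and Mir363) hold 9 of the 2202 annotated miRNA genes in the deposited tables. The members were taken by gene identifier from GENCODE M21, and all 9 were found. Small RNA under 30 nt was sequenced from whole left cerebral cortex of 4-day-old male B6CASTF1/J mice, hybrids from a cross of C57BL/6J and CAST/EiJ. The study has 1 group, with no treatment or mutation, and 2 libraries labelled biological replicates 1 and 2. The labels give the males different numbers and the same donor identifier, so whether the libraries came from separate animals is not settled, and their spread may be technical. Male cells carry a single X chromosome, on which the miR-106a-363 cluster lies.

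A miRNA gene is transcribed as part of a longer RNA, from which Drosha and Dicer release a hairpin and then a short duplex. One arm, the guide, is kept by an Argonaute protein, and its seed (bases 2 to 8 from the 5′ end) pairs with target mRNAs. Both clusters are paralogs of the cluster of 6 miRNAs in Mir17hg, which promotes proliferation and survival of many progenitor cells, those of the developing cortex included. Mcm7, the host of the first cluster, encodes a subunit of the helicase that opens DNA for replication. The miR-17 seed family, which Mir106b, Mir93, Mir106a and Mir20b belong to, is known for repressing the cell cycle inhibitor p21 and the TGF-beta pathway. The miR-25 family, to which Mir25, Mir92-2 and Mir363 belong, is known for repressing integrins and regulators of survival.

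The guide arms of the 9 members fall into 4 seed families, and they are shown because the seed sets which targets a miRNA pairs with. Sequences are RefSeq's (GRCm38.p6), 5′ to 3′, with the seed in capitals, and all 9 hairpins matched by symbol and position.
Mir106b: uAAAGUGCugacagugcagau
Mir93: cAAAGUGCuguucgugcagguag
Mir106a: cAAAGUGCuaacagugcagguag
Mir20b: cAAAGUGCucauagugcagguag
Mir18b: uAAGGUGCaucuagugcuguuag
Mir19b-2: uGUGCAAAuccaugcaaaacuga
Mir25: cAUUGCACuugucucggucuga
Mir92-2: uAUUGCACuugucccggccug
Mir363: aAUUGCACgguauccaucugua
The Mcm7 cluster thus carries 2 of these families, and the miR-106a-363 cluster carries all 4. Mir106a differs from Mir17, its closest relative in the Mir17hg cluster, by a single base (U10A, with Mir17's base first and positions counted from 1 at the 5′ end). Mir20b differs from Mir20a by U1C and U10C, and Mir18b from Mir18 by A18U and A20U.

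The guide arm of Mir92-2 is identical to that of Mir92-1, and the guide arm of Mir19b-2 to that of Mir19b-1. In the layout of the tables a read placed at several sites goes to no gene, so reads lying wholly in the shared part could be counted for neither copy. The hairpins of the miR-92 pair are shown because only bases outside the guide arm tell them apart, with the guide arm in capitals.
Mir92-1: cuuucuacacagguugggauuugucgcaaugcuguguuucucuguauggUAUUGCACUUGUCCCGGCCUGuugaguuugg
Mir92-2: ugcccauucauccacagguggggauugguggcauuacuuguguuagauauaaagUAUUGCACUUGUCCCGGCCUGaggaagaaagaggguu
These hairpins share a run of 22 nt, and those of Mir19b-1 and Mir19b-2 share 25 nt. Sites outside miRNA hairpins were not searched for copies. The other 7 members had no exact copy of an annotated arm in another miRNA hairpin. The nearest match to their guide arms had 1 mismatch for Mir106a, 2 for Mir18b and Mir20b, 3 for Mir106b, Mir93 and Mir25, and 8 for Mir363. The levels of Mir92-2 and Mir19b-2, and of their copies Mir92-1 and Mir19b-1, are therefore uncertain below, as are shares and ratios that include them. The number of reads lost to this was not tested. Whether reads of near matches, such as Mir17 and Mir106a, were counted for one another was not tested either.

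On mm10 the Mcm7 cluster spans 498 nt of chromosome 5 (138165321 to 138165818, minus strand). Mir106b (ENSMUSG00000065514.1; 138165737 to 138165818) lies upstream, inside Mcm7 and clear of its annotated exons. Mir93 (ENSMUSG00000065527.1; 138165523 to 138165610) and Mir25 (ENSMUSG00000065394.1; 138165321 to 138165404) also lie inside Mcm7, where 1 transcript of the retained-intron class includes both as exon. The miR-106a-363 cluster spans 875 nt of the X chromosome (52741693 to 52742567, minus strand). Its order along the transcript is Mir106a (ENSMUSG00000065456.1; 52742503 to 52742567), Mir18b (ENSMUSG00000077111.2; 52742331 to 52742413), Mir20b (ENSMUSG00000076041.1; 52742113 to 52742192), Mir19b-2 (ENSMUSG00000065473.1; 52741983 to 52742066), Mir92-2 (ENSMUSG00000065613.1; 52741838 to 52741928) and Mir363 (ENSMUSG00000070106.1; 52741693 to 52741767). Mir106a overlaps an exon of the noncoding RNA Kis2 by 5 nt, and the other 5 overlap no annotated gene besides their own. The Mcm7 hairpins are 126 and 118 nt apart and hold 55.7% to 63.1% G and C, while the X-linked hairpins are 46 to 138 nt apart and hold 38.1% to 47.3%.

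**Figure D1:**
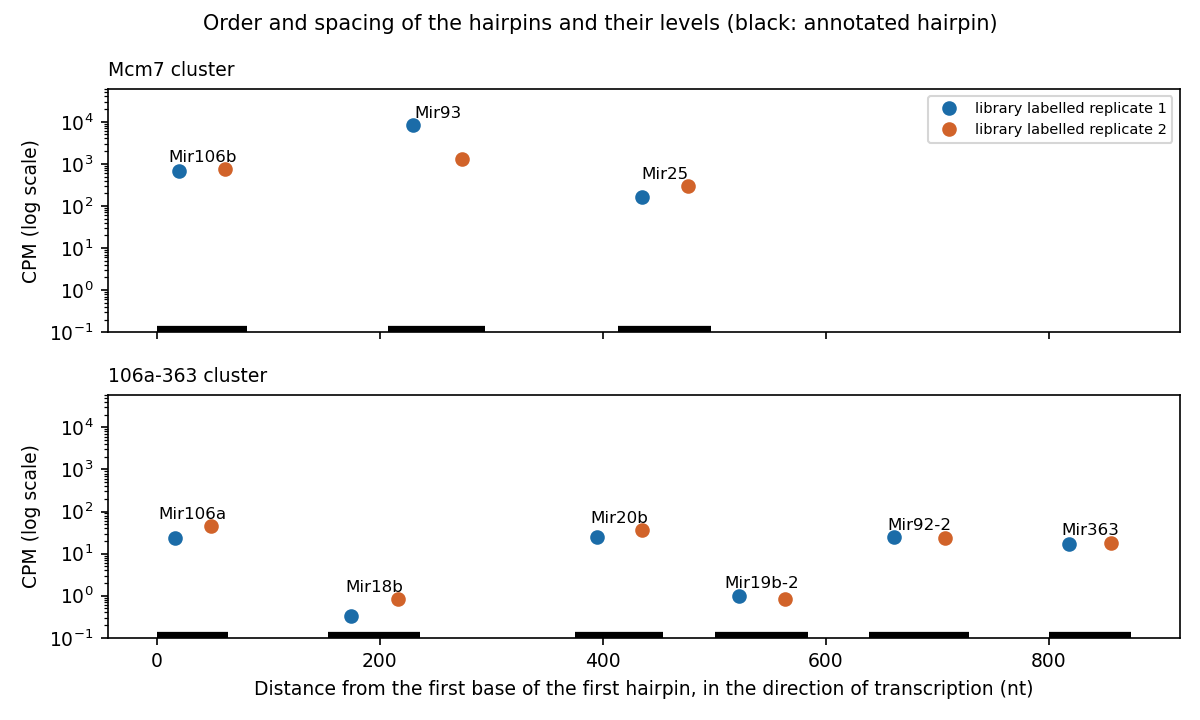
Level of each hairpin (CPM, reads per 1000000 own-strand miRNA reads, log scale) against its distance in nt from the first base of the cluster's first hairpin; black bars are annotated hairpins, blue and orange points the libraries labelled replicate 1 and 2. Mir93, the middle hairpin of the Mcm7 cluster, is at 8407 and 1329.5 CPM, and no hairpin of the miR-106a-363 cluster exceeds 45.3 CPM.

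The libraries held 2999032 and 3577964 own-strand counts on miRNA genes, of which the members took 28054 and 8892. A count of 0 allows a level of up to 1.00 and 0.838 CPM (3 counts). The libraries stood apart in tissue markers. Of 9 muscle miRNA genes, 8 had a higher CPM in the library labelled replicate 2, where the list held 15.7% of counts, against 0.00730% in the other, with 6 at 0 in replicate 1 and 1 in replicate 2. The 14 neuron-enriched genes, all lower there, held 4.27% in replicate 1 (none at 0) and 0.132% in replicate 2 (Mir9-2 and the 3 Mir124a copies at 0). Reads placed at several sites go to no gene, so a 0 at a gene with copies may not mean absence, which was not tested. The 5 Hox cluster genes (Mir196a-1 at 0 in replicate 1) held 0.0228% and 1.91%, and the 3 red blood cell genes 0.00453% and 0.0153%, with all 8 higher in replicate 2. The cortex label of replicate 2 is thus at odds with its markers, and every value below is given for each library as labelled. In bulk tissue, fewer cells of a type and less RNA per cell cannot be told apart. The part that the make-up of the tissue plays in the results below was not tested.

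In the Mcm7 cluster, Mir93 led in both libraries, and its level was far higher in replicate 1. Mir93, a miR-17 family miRNA, had 25213 counts in replicate 1 and 4757 in replicate 2, that is 8407 CPM (exact 95% binomial interval 8304 to 8511) and 1329.5 CPM (1292 to 1368). It ranked 29 and 72 among all miRNA genes. Mir106b, of the same seed family, had 2075 and 2652 counts, 692 CPM (662 to 722) and 741 CPM (713 to 769.95). Mir25, which carries the miR-25 seed, had 494 and 1038 counts, 165 CPM (151 to 179.9) and 290.1 CPM (273 to 308). The order Mir93, Mir106b, Mir25 held in each library with no overlap of intervals. Dividing counts by hairpin length could not have changed it, since the lengths (82 to 88 nt) are so alike. Mean levels were 4868 ± 5005 CPM for Mir93, 717 ± 34.9 for Mir106b and 227 ± 88.7 for Mir25 (SD, n = 2). The 2 libraries stood apart in tissue markers, so these means and SDs describe the pair of libraries and not replicates of a settled tissue. Intervals cover counting error only, and reads amplified without molecular identifiers are not independent molecules.

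Every hairpin of the miR-106a-363 cluster was scarce, and 2 of the 6 were at or under the limit of 3 counts. Mir106a, the miR-17 family member nearest to Mir17, had 70 and 162 counts, 23.3 CPM (18.2 to 29.5) and 45.3 CPM (38.6 to 52.8). Mir20b, of the same family, had 74 and 128 counts, 24.7 CPM (19.4 to 31.0) and 35.8 CPM (29.8 to 42.5). Both stood higher in replicate 2, where the interval of Mir106a lay clear of that in replicate 1 and the interval of Mir20b overlapped it at the edge. Mir92-2, which carries the miR-25 seed, had 73 and 84 counts, 24.3 CPM (19.1 to 30.6) and 23.5 CPM (18.7 to 29.1). Mir363, of the same seed, had 51 and 65 counts, 17.0 CPM (12.7 to 22.4) and 18.2 CPM (14.0 to 23.2). Their levels in the 2 libraries lay within counting error of each other. Mir18b had 1 and 3 counts and Mir19b-2, which carries the miR-19 seed, 3 and 3, so no ratio is given for either. In replicate 1 the intervals of neighbours in the order Mir20b, Mir92-2, Mir106a, Mir363 overlapped, so that order is not resolved. Divided by hairpin length (65 to 91 nt), Mir106a came first there. In replicate 2 Mir106a and Mir20b overlapped, as did Mir92-2 and Mir363, while Mir20b lay above Mir92-2.

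**Figure D2:**
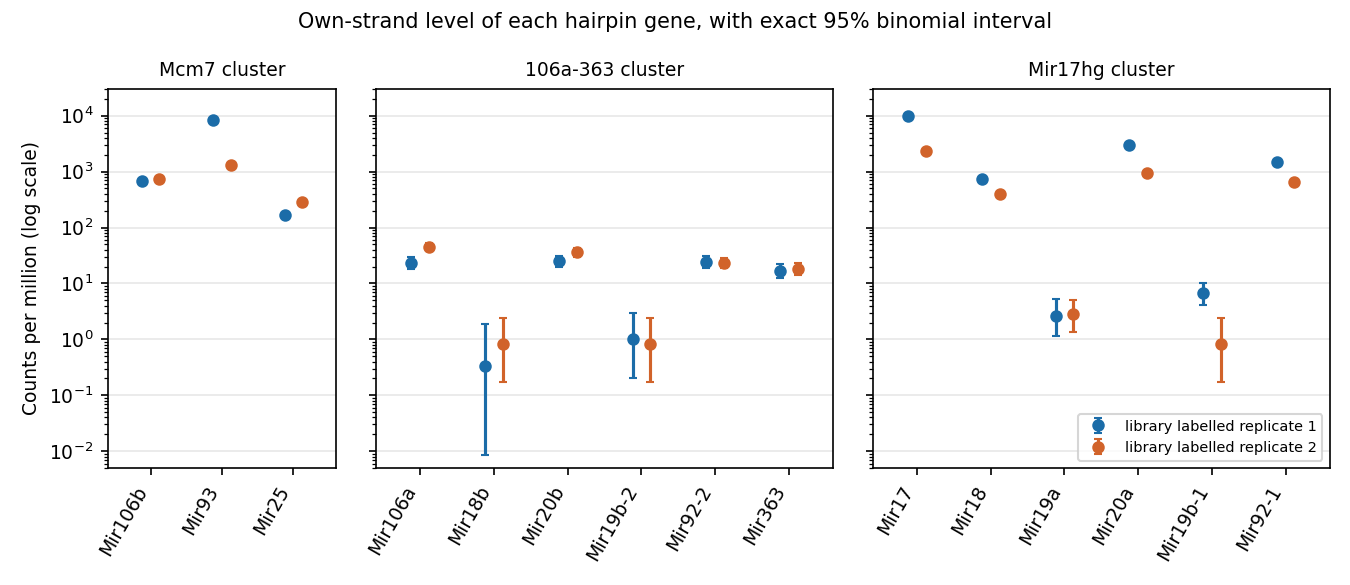
CPM (log scale) of each hairpin of the 2 clusters and of the Mir17hg cluster, with exact 95% binomial intervals, in the libraries labelled replicate 1 (blue) and 2 (orange). Mir93, Mir17 and Mir20a sit far higher in replicate 1, while Mir25, Mir106a and Mir20b sit higher in replicate 2.

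The Mcm7 cluster outnumbered the miR-106a-363 cluster in each library, by a factor that differed 5.38-fold between them. The Mcm7 cluster took 0.926% of counts (0.916 to 0.937) in replicate 1 and 0.236% (0.231 to 0.241) in replicate 2, a mean of 0.581% ± 0.488 (SD, n = 2). The miR-106a-363 cluster took 0.00907% (0.00802 to 0.0102) and 0.0124% (0.0113 to 0.0136), a mean of 0.0108% ± 0.00238. Both means are taken over libraries that stood apart in tissue markers. The ratio of the first to the second was 102 (90.6 to 116) in replicate 1 and 19.0 (17.3 to 20.9) in replicate 2. The difference of the log2 ratios, replicate 2 minus replicate 1, was -2.43 (exact 95% interval -2.65 to -2.20). A ratio within a library does not depend on how libraries are scaled. With 2 libraries an exact two-sided permutation test that takes the cluster values as unpaired could give no p under 0.333, and it was left out. Both clusters were measured in the same libraries, and a paired permutation test would have fewer arrangements still.

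Most counts of the Mcm7 cluster were those of Mir93 (90.8% in replicate 1 and 56.3% in replicate 2), so the cluster sum largely follows Mir93. Without Mir93 the Mcm7 cluster was 9.44 (8.33 to 10.7) times the miR-106a-363 cluster in replicate 1 and 8.29 (7.51 to 9.17) times in replicate 2. The log2 difference was then -0.19, with an interval that included 0 (-0.42 to 0.05). Single pairs differed in both directions, with -0.86 (-1.29 to -0.43) for Mir106b over Mir106a and 0.72 (0.14 to 1.30) for Mir25 over Mir363. Leaving Mir93 out also turned the Mcm7 cluster's log2 ratio between the libraries (total counts) from -1.97 to 0.27. The muscle, neuron-enriched and Hox lists differ between the same libraries, and their part in this result was not tested.

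The make-up of the Mcm7 cluster differed between the libraries, although its hairpins lie side by side on the same strand of a host gene. Mir93 held 90.8% of the cluster's counts (90.4 to 91.1) in replicate 1 and 56.3% (55.3 to 57.4) in replicate 2. Mir106b held 7.47% (7.16 to 7.78) and 31.4% (30.4 to 32.4), and Mir25 1.78% (1.63 to 1.94) and 12.3% (11.6 to 13.0). The ratio of Mir93 to Mir106b was 12.2 (11.6 to 12.7) in replicate 1 and 1.79 (1.71 to 1.88) in replicate 2, a log2 difference of -2.76 (-2.85 to -2.67). That of Mir93 to Mir25 was 51.0 and 4.58, a log2 difference of -3.48 (-3.64 to -3.31). That of Mir106b to Mir25 was 4.20 (3.81 to 4.64) and 2.55 (2.38 to 2.75), a log2 difference of -0.72 (-0.90 to -0.54). All 3 hairpins thus differed in their ratios to one another by more than counting error.

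The miR-106a-363 cluster was shared more evenly. In replicate 1 Mir20b held 27.2% of its 272 counts (22.0 to 32.9), Mir92-2 26.8% (21.7 to 32.5), Mir106a 25.7% (20.6 to 31.4) and Mir363 18.8% (14.3 to 23.9). In replicate 2 Mir106a held 36.4% of 445 counts (31.9 to 41.1), Mir20b 28.8% (24.6 to 33.2), Mir92-2 18.9% (15.3 to 22.8) and Mir363 14.6% (11.5 to 18.2). For the pair with the miR-17 seed the interval of the difference included 0, since Mir106a over Mir20b was 0.946 (0.672 to 1.33) and 1.27 (0.998 to 1.61), with a log2 difference of 0.42 (-0.19 to 1.03). It also did for the pair with the miR-25 seed, where Mir92-2 over Mir363 was 1.43 (0.987 to 2.09) and 1.29 (0.924 to 1.81), with a log2 difference of -0.15 (-0.89 to 0.59). Across the seeds, Mir106a over Mir92-2 was 0.959 (0.681 to 1.35) and 1.93 (1.47 to 2.54), a log2 difference of 1.01 (0.37 to 1.65). Mir106a over Mir363 was 1.37 and 2.49, a log2 difference of 0.86 (0.15 to 1.56). For Mir20b over Mir92-2 the interval again included 0, with a log2 difference of 0.59 (-0.06 to 1.23). The ratios of Mir106a to Mir92-2 and to Mir363 thus differed between the libraries by more than counting error.

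**Figure D3:**
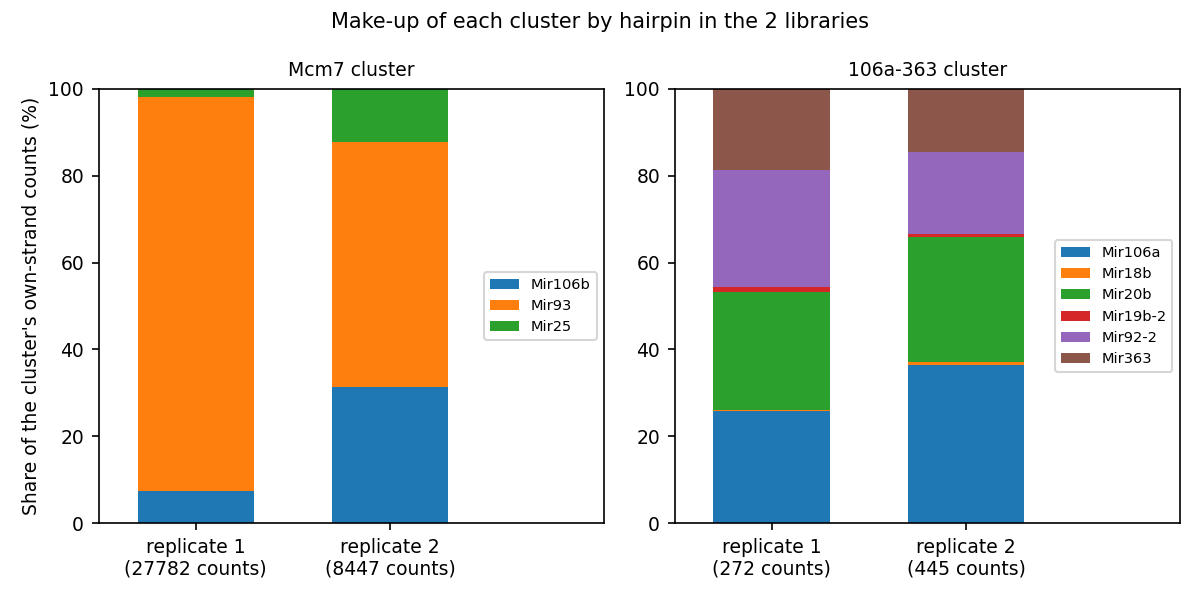
Share of each cluster's own-strand counts (percent) held by each hairpin, in the libraries labelled replicate 1 and 2. Mir93 holds 90.8% and 56.3% of the Mcm7 cluster, while 4 hairpins hold most of the miR-106a-363 cluster in both libraries.

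The libraries were also compared gene by gene with an exact two-sided binomial test over all 463 genes with at least 10 counts summed (Benjamini-Hochberg adjusted, threshold 0.05). This asks whether the 2 libraries differ by more than sampling of reads, and no conditions are compared. With TMM scaling, which assumes that most genes do not differ, all 7 tested members passed, 6 higher and 1 lower in replicate 2. Of all genes tested 79.9% passed, 40.6% higher and 39.3% lower, so a call is by itself no result about the members. With total counts 4 members were higher, 1 was lower and 2 did not pass, where 90.1% of all genes passed, 26.3% higher and 63.7% lower. Mir18b and Mir19b-2 had too few counts to be tested. TMM scaling lifts every log2 ratio by 1.40 above its value with total counts. The median log2 ratio over the 7 tested members was 0.10 with total counts and 1.503 with TMM, beside -1.67 and -0.27 over all genes tested.

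Mir93 was lower in replicate 2 under both scalings, with a log2 ratio of -2.66 (-2.71 to -2.62) with total counts and -1.26 with TMM. It was 6.32-fold lower in CPM, and its adjusted p from the exact binomial test was too small to be written in double precision. Mir25 was higher under both scalings, with a log2 ratio of 0.82 (0.66 to 0.97) with total counts (adjusted p = 4.3e-26, exact binomial test) and 2.22 with TMM. Mir106b was higher by only 0.10 (0.02 to 0.18) with total counts (adjusted p = 0.022, exact binomial test) and by 1.503 with TMM. The 3 hairpins of the Mcm7 cluster therefore did not move as a unit.

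Mir106a had a log2 ratio of 0.96 (0.54 to 1.38) with total counts (adjusted p = 2.7e-06, exact binomial test) and 2.36 with TMM. Mir20b had 0.54 (0.11 to 0.97) with total counts (adjusted p = 0.013, exact binomial test) and 1.94 with TMM. Both passed as higher under each scaling. Mir92-2 and Mir363 passed as higher with TMM, at 1.35 and 1.499, but not with total counts. There Mir92-2 turned to -0.05 (-0.52 to 0.42; adjusted p = 0.89, exact binomial test) and Mir363 was at 0.10 (-0.46 to 0.65; adjusted p = 0.80).

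**Figure D4:**
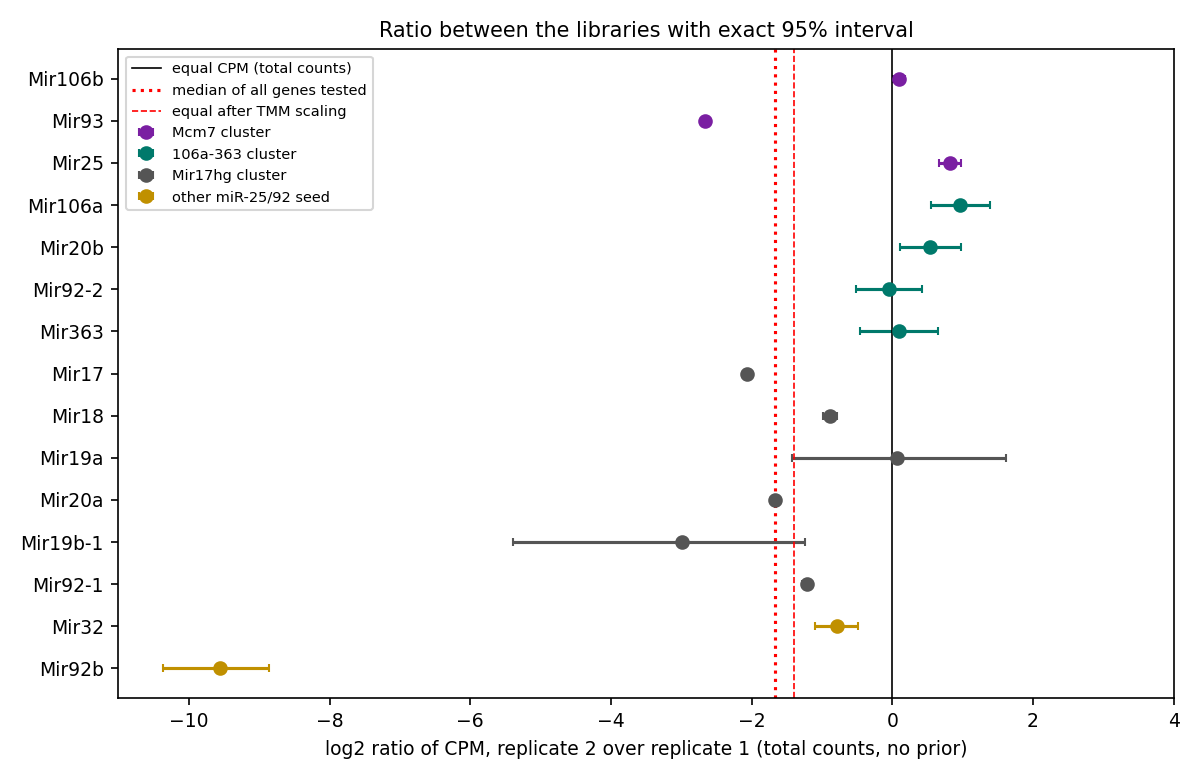
Log2 ratio of CPM, replicate 2 over replicate 1 (total counts), with exact 95% intervals, for the members and relatives with more than 3 counts in a library. Among members only Mir93, at -2.66, lies left of the median of all genes tested (dotted, -1.67), and the other 6 lie right of the line of equal level after TMM scaling (dashed).

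Among the 10 relatives, 8 were tested. In the Mir17hg cluster, Mir17 and Mir20a, the major miR-17 family members there, were lower under both scalings. Mir17 had 30006 and 8526 counts, 10005 and 2383 CPM, a log2 ratio of -2.07 (-2.10 to -2.04) with total counts and -0.67 with TMM. Mir20a had 8974 and 3380 counts, 2992 and 945 CPM, a log2 ratio of -1.66 (-1.72 to -1.61) and -0.26 with TMM. The call of Mir20a was lost under a negative binomial exact test that allows for variation beyond counting error (adjusted p = 0.25). Its coefficient of variation was fixed at 0.1 and not estimated from these libraries, so a call kept under it may not stand against their real spread. With TMM 4 relatives were higher, 3 lower and 1 did not pass, and with total counts 0 were higher, 7 lower and 1 did not pass. The share of all genes tested that was lower came to 39.3% under TMM and 63.7% under total counts, and the share that was higher to 40.6% and 26.3%. Mir17hg as a whole took 1.52% (1.51 to 1.54) and 0.437% (0.430 to 0.443) of counts, 1.64 (1.62 to 1.67) and 1.85 (1.80 to 1.90) times the Mcm7 cluster.

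Hairpins whose guide arms share a seed differed widely in their counts, which take both arms of a hairpin together. The guide arm of Mir106a is a single base from that of Mir17. Mir106a was 429 (339 to 550.0) times less abundant than Mir17 in replicate 1 and 52.6 (45.1 to 61.9) times in replicate 2. Whether Mir17 reads misread at that base were counted for Mir106a was not tested, so its low counts and these ratios carry that uncertainty. Mir20b was 121 (96.5 to 155) and 26.4 (22.1 to 31.8) times less abundant than Mir20a. Both X-linked miRNAs thus stood closer to their paralogs in replicate 2. Mir106b exceeded Mir106a by 29.6 (23.4 to 38.2) and 16.4 (14.0 to 19.3) times. The guide arms of Mir25 and Mir363 share the seed but differ at 13 of 22 bases. Mir25 exceeded Mir363 by 9.69 (7.25 to 13.2) and 15.97 (12.4 to 20.8) times, a log2 difference of 0.72 (0.14 to 1.30). This difference was opposite in sign to that of Mir106b over Mir106a (-0.86, with an interval of -1.29 to -0.43). Mir93 exceeded Mir20b by 341 (271 to 434) and 37.2 (31.2 to 44.6) times. Mir92-1 had 4477 and 2297 counts, 61.3 (48.7 to 78.4) and 27.3 (22.0 to 34.4) times those of Mir92-2, a comparison that may leave out the reads both hairpins could give.

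The hairpins were also grouped by the seed of their guide arm, although a count holds reads of both arms and the other arm carries another seed. Of the hairpin counts in the miR-17 group, the Mcm7 cluster supplied 37.8% or more in each library. Mir93 had a smaller share of the group in replicate 2, and Mir106b a larger share. Mir6383, which has the same seed, had 0 counts. The family (6 detected genes) had 66412 counts (22144.5 CPM) in replicate 1 and 19605 (5479.4 CPM) in replicate 2. The Mcm7 cluster gave 41.1% (40.7 to 41.5) and 37.8% (37.1 to 38.5) of them. Mir93 gave 38.0% (37.6 to 38.3) and 24.3% (23.7 to 24.9), while Mir106b gave 3.12% (2.99 to 3.26) and 13.5% (13.1 to 14.0). The level of Mir106b itself was 692 and 741 CPM, so the lower family total in replicate 2 bears on every share. Mir106a and Mir20b together gave 0.217% (0.183 to 0.255) and 1.48% (1.31 to 1.66). The Mir17hg cluster gave the rest, 58.7% and 60.7%.

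In the miR-25 family Mir25 gave 3.20% (2.93 to 3.49) of 15441 counts in replicate 1 and 28.4% (26.9 to 29.9) of 3657 in replicate 2. Mir92b held 65.5% (64.8 to 66.3) in replicate 1 and 0.438% (0.250 to 0.710) in replicate 2, with 10118 and 16 counts, so the family total itself differed and bears on every other share. Against Mir92-1 alone, whose count may lack reads shared with Mir92-2, Mir25 was 9.06 (8.26 to 9.97) times less abundant in replicate 1 and 2.21 (2.06 to 2.38) times in replicate 2. Mir92-2 and Mir363 together gave 0.803% (0.668 to 0.957) and 4.07% (3.46 to 4.77). Mir32, in an intron of Tmem245 and with the same seed, had 228 and 157 counts, and Mir367 had 0 in both. The miR-18 family was nearly all Mir18 (2177 and 1405 counts), to which Mir18b added 1 and 3.

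**Figure D5:**
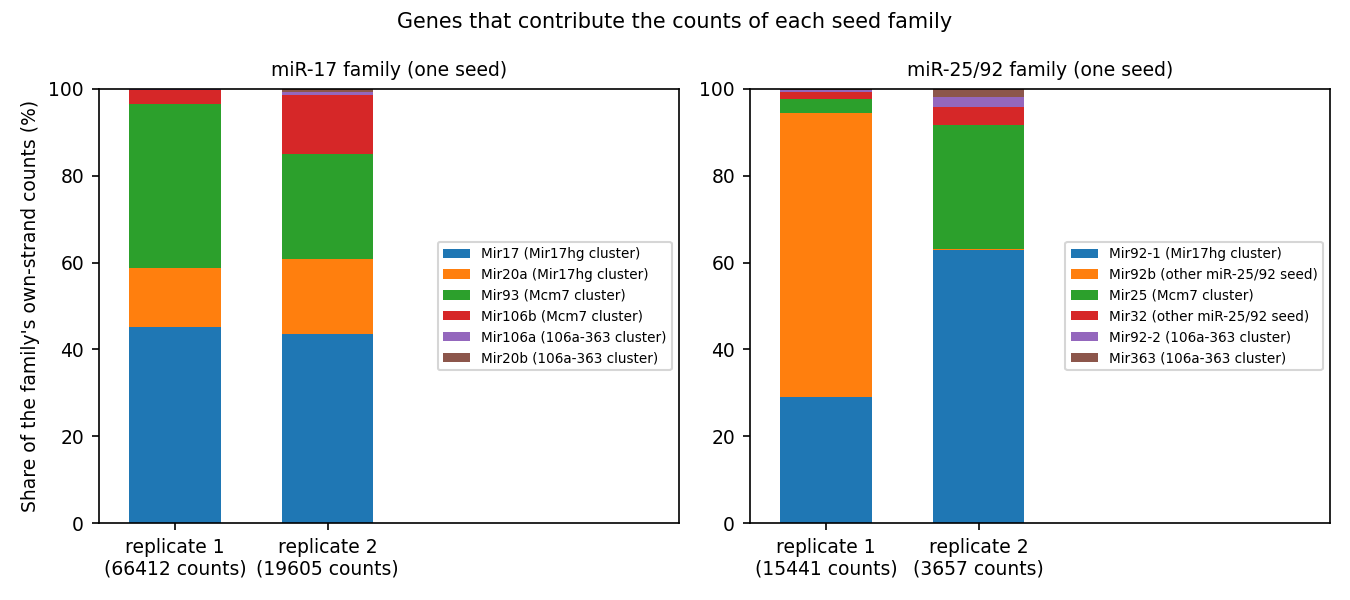
Share of the own-strand counts (percent) of the miR-17 family and of the miR-25 family held by each gene, in the libraries labelled replicate 1 and 2. Mir106b holds 3.12% and 13.5% of the miR-17 family, and Mir25 3.20% and 28.4% of the miR-25 family.

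By the ratio between the libraries, 3 genes outside these families were picked as nearest to each cluster sum from 178 genes with at least 1000 counts summed (log2 ratio, total counts, prior of 1 CPM). Nearest to the Mcm7 cluster (-1.97) were Mir100 at -1.99, Mir149 at -1.95 and Mir99a at -2.003. Nearest to the miR-106a-363 cluster (0.45) were Mir425 at 0.45, Mir15a at 0.40 and Mir134 at 0.39. Likeness over 2 libraries rests on a single difference and describes these libraries only.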

How the data were processed

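The authors deposited raw read counts per miRNA gene for each library. Text supplied alongside the tables names mm10 and GENCODE M21, and for the aligner and the counter the tool is not given in the sources used. The 3 columns have the layout of either-strand, own-strand and opposite-strand counts, and the own-strand column was used. Members had 0 opposite-strand reads, and arms are not separated. Entries without a gene stayed out of library sizes: unplaced reads were 18.4% and 6.11%, reads at several sites 46.1% and 39.8%, and reads outside miRNA genes 5.55% and 1.47%.

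CPM is the count per 1000000 own-strand counts. Shares and ratios carry exact Clopper-Pearson intervals (95%), and differences of ratios exact conditional intervals. TMM factors were 1.63 and 0.615. A gene test needs replicates in each arm for edgeR's quasi-likelihood fit, so an exact binomial test was used. It was checked on counts simulated with counting error alone and scaled by total counts. That check does not cover TMM scaling or variation beyond counting error. Members and lists were chosen with earlier results of these data known. Named were all members, their seed relatives and the 3 genes nearest to each cluster in ratio. Alternatives were other scalings, filters, strands, a negative binomial test and left-out members, and division by hairpin length was added after seeing the data. Tools were Python 3.11.15 with scipy 1.17.1 and matplotlib 3.10.9, and R 4.3.3 with DESeq2 1.42.0 and edgeR 4.0.16.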

Additional observations from a re-analysis of the deposited data

Results flagged for a closer look

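Of the reads that no miRNA gene was credited with, those placed at several sites numbered 4626252 for replicate 1 and 2706949 for replicate 2, and they lie outside every comparison of the report. Their number exceeds the limit of 3 counts, and the layout gives no sequence for them. How many carry the guide arm that Mir92-2 shares with Mir92-1, or Mir19b-2 with Mir19b-1, was not tested.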

How the results depend on the processing

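The number of genes that differed was 370 of 463 tested, and 280 to 417 under the 7 alternatives. All lay within 1.5 times of 370, but with 463 genes tested the upper limit could not be passed. The number tested changed as well, with 280 of 295 passing at a minimum of 100 counts and 370 of 758 with no filter. The range of 280 to 417 therefore does not measure stability. Of 49 values of tested members under these alternatives, 45 kept their call and direction. Not every alternative could move them freely. Other filters left each log2 ratio as it was and could change a call only through the adjustment of p. Unstranded counting left the members' counts as they were and changed only scaling and adjustment. A kept call does not mean a similar size, since the ratio of Mir106b was far smaller with total counts than with TMM. Mir92-2 turned to -0.0501 with total counts, and Mir92-2 and Mir363 did not pass with total counts or without the most abundant gene. Of 54 values of relatives, 40 kept their call and direction, 6 lost the call, 2 gained one and 6 reversed. Mir20a (adjusted p = 0.25) and Mir92-1 (0.42) lost it under the negative binomial exact test, Mir19a under 4 alternatives, and Mir19b-1 passed under 2. Mir18 turned to -0.88, Mir92-1 to -1.22 and Mir32 to -0.78 with total counts, and to -0.81, -1.14 and -0.71 with library sizes without the most abundant gene. The Mcm7 cluster's log2 ratio between the libraries (-1.97) was -0.57 with TMM, -0.42 with DESeq2 size factors, -1.90 without the most abundant gene, -1.87 with unstranded counts and 0.27 without Mir93. That of the miR-106a-363 cluster (0.46) was 1.86 with TMM, 2.01 with DESeq2 size factors and 0.23 without Mir106a. The log2 ratio of the Mcm7 to the miR-106a-363 cluster (6.67 and 4.25) was 7.15 and 4.56 without the members that share a mature sequence, 7.67 and 5.25 per member, 3.70 in each library without the most abundant member of each, and 6.49 and 4.05 per hairpin length. Leaving out members that share a mature sequence does not apply to the Mcm7 cluster's ratio between the libraries, since none of its members do. Division by hairpin length moved 5 of 18 hairpin shares beyond their interval, while unstranded counting cannot move them, since members had 0 opposite-strand reads. Each library alone gave 0.236% to 0.926% for the Mcm7 cluster and 0.00907% to 0.0124% for the other. The causes of these shifts were not tested. Depth limits the miR-106a-363 hairpins, with at most 162 counts each.
No pairing of samples between groups was possible because the study has a single group. The ratios of clusters and of hairpins were taken within each library.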

Other observations

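The Mir17hg cluster changed its make-up less than the Mcm7 cluster did. Mir17 held 65.7% of its counts (65.3 to 66.1) in replicate 1 and 54.6% (53.8 to 55.4) in replicate 2, Mir20a 19.7% and 21.6%, Mir92-1 9.80% and 14.7%, and Mir18 4.77% and 8.99%. Mir17 over Mir93 went from 1.19 (1.17 to 1.21) to 1.79 (1.73 to 1.86). Mir19a, whose guide arm differs from that of Mir19b-2 by U11C, had 8 and 10 counts, and Mir19b-1 had 20 and 3. The miR-19 family was thus nearly absent from the gene counts of all 3 of its hairpins (31 and 16 counts in all). Guide-arm reads shared by Mir19b-1 and Mir19b-2 may be counted for neither, so these counts do not give the family's level.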
